A study of Rattus norvegicus with 12 samples.

Results

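The plasminogen activation and protease-activated receptor genes described here are Plau, Plaur, Plat, Serpinb2, F2rl1, F3 and Thbd, chosen by name from the deposited expression table. They are 7 of the 30452 genes in the table, and all 7 were found by their symbol. Their levels were measured by RNA sequencing in rat corneas in 4 groups of 3 libraries: SF/HA-HEP-PAM, SF/HA, Alkali-burned and Control. The series is about a silk patch worn on the eye surface that can be taken off again and is meant to take up mediators of inflammation. Alkali-burned and Control are given by those words alone, and SF/HA-HEP-PAM and SF/HA are left as abbreviations in the labels. No strain, sex, age or time after injury is stated for any group, and nothing says whether corneas of the SF/HA-HEP-PAM and SF/HA groups were burned. Nothing states whether the replicates were separate animals either, so every p-value below measures the spread between these samples, which may be technical.

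Plasmin is a broad protease of wounds that dissolves fibrin and loosens cell contacts with the matrix, and it is made from plasminogen by the urokinase-type activator (Plau) or the tissue-type activator (Plat). Urokinase acts on the cell surface when bound to its receptor (Plaur), and serpins such as Serpinb2 block both activators. Protease-activated receptor 2 (F2rl1) is a receptor of epithelia that is switched on when a trypsin-like protease cuts its outer end. Tissue factor (F3) starts coagulation and can hold proteases that cut this receptor, and thrombomodulin (Thbd) turns thrombin from clotting to anticoagulation.

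Levels are FPKM, fragments scaled to gene length and to the mapped reads of a library, as the authors deposited them. The length in the table is the whole genomic span of a gene with its introns, so FPKM values are compared between libraries and not between genes. Reads assigned to genes, recovered from the table, came to 1245606 to 2117399 in SF/HA-HEP-PAM, 499061 to 957696 in SF/HA, 1173159 to 1265298 in Alkali-burned and 486264 to 1015788 in Control libraries. A gene is called higher or lower where limma gave a Benjamini-Hochberg adjusted p below 0.05 over the 6112 genes tested and a difference above 1 or below -1 in log2(FPKM + 1). Krt12, the keratin of corneal epithelium, lay between 1033 and 3655 FPKM in all 12 libraries. The 4 stromal markers, all above 0, summed to 653 to 1099 FPKM in SF/HA-HEP-PAM, 1827 to 1983 in SF/HA, 1451 to 1901 in Alkali-burned and 1745 to 4533 in Control libraries, so every SF/HA-HEP-PAM library lay below all others. Lum and Dcn were called lower in SF/HA-HEP-PAM than in SF/HA (-1.11 and -1.21), and Kera and Col1a1 lower in SF/HA-HEP-PAM (-2.59 and -2.35), SF/HA (-1.61 and -1.50) and Alkali-burned (-1.85 and -1.91) than in Control. Lum and Dcn were not called against Control. They were above it in Alkali-burned (0.45 and 0.75) and SF/HA (0.61 and 1.06), and below it in SF/HA-HEP-PAM (-0.50 and -0.14). The part of these 4 markers in the differences of the 7 genes was not tested. Alkali-burned over Control bears on the injury. In comparisons of SF/HA-HEP-PAM or SF/HA with Alkali-burned, a patch and the presence of a burn cannot be told apart from the labels. All 7 genes passed the filter of at least 1 FPKM in at least 3 libraries. Thbd did so through 3 libraries of the SF/HA-HEP-PAM and SF/HA groups, so its place among the tested genes depended on the groups in which it was high.

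The promoters of Plau, Plaur and Serpinb2 are shown. They are the only 3 of the 7 genes that the RefSeq table of promoters, on build GRCr8, held. The 250 bases before each start site are printed 5′ to 3′ on the strand of the gene. Capitals mark the letters TGANTCA of an AP-1 motif in Plaur (chr1:89181113-89181362, plus strand) and Serpinb2 (chr13:24055771-24056020, plus strand), and GGGCGG of a GC box, on either strand, in Plau (chr15:3511988-3512237, minus strand).
Plau: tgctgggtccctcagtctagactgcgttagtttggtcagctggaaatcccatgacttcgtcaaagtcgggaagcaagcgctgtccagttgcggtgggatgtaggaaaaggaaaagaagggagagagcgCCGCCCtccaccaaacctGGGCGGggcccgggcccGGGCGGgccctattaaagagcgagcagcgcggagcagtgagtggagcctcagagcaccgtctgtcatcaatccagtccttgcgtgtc
Plaur: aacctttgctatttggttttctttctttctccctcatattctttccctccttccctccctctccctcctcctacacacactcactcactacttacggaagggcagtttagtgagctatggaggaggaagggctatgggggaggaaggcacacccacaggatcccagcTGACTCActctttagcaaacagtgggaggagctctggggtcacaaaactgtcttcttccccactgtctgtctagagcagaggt
Serpinb2: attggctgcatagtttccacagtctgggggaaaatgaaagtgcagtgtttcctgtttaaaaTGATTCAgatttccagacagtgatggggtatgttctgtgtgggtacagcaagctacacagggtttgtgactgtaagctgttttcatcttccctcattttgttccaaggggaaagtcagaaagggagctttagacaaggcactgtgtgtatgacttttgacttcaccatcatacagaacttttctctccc

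In 300 bases, which end 50 bases past the start site, both strands were searched for the AP-1 letters TGANTCA and the GC box given above. The other letters searched were TGACGTCA of the cyclic AMP response element (CRE), those of a TATA box, TATAAA, and a motif like that of NF-kB. TGANTCA leaves its middle base open and reads the same on both strands, and its matches overlap none of the others. It began 83 bases before the start site in Plaur, as TGACTCA, and 189 bases before it in Serpinb2, as TGATTCA. Of the 33469 promoters in the table, 7.33% hold TGANTCA with any middle base. Plau held GGGCGG or its complement at 122, 104 and 87 bases before the start site, and 33.1% of all promoters hold it. The letters of the CRE, TATA box and NF-kB-like motifs, held by 1.83%, 14.2% and 1.53% of all promoters, were in none of the 3 windows. These matches describe letters only.

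Urokinase, encoded by Plau (ENSRNOG00000010516, mRatBN7.2 chr15:3456232-3462775, minus strand), was highest in SF/HA-HEP-PAM and lowest in Control corneas. Its levels were 77.5, 116.8 and 100.2 FPKM in SF/HA-HEP-PAM, 52.9, 71.7 and 63.7 FPKM in SF/HA, 58.4, 26.4 and 29.0 FPKM in Alkali-burned and 15.4, 18.8 and 12.6 FPKM in Control libraries. The SF/HA-HEP-PAM libraries lay above all 9 others and the Control libraries below all others. Alkali-burned replicate 1 fell inside the SF/HA range. Plau differed among the 4 groups in limma's F-test (adjusted p = 0.00101). In whole corneas, fewer cells of a type and less RNA per cell cannot be told apart, for this gene and for those that follow.

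Plau rose 6.29-fold in mean FPKM in SF/HA-HEP-PAM over Control (98.2 ± 19.7 against 15.6 ± 3.08 FPKM, SD, n = 3), a log2 difference of 2.57 (SE 0.29, adjusted p = 0.000375, limma). It also rose in SF/HA over Control, by 1.95 on the log2 scale (adjusted p = 0.00372, limma). Over Alkali-burned the SF/HA-HEP-PAM libraries were 1.42 higher (SE 0.29, adjusted p = 0.00678, limma). These 3 calls were kept with any 1 of the 12 libraries left out. In Alkali-burned over Control the difference was 1.16 (SE 0.29, adjusted p = 0.0333, limma), a call that did not hold in 5 of the 12 fits with 1 library left out. Without Alkali-burned replicate 1 it was 0.81 (adjusted p = 0.0743, limma), without Alkali-burned replicate 3 it was 1.30 (0.0543), and without Control replicates 1, 2 and 3 in turn it was 1.15 (0.0558), 1.29 (0.0546) and 1.02 (0.103). Plau was not called in SF/HA over Alkali-burned (0.79, 95% interval 0.15 to 1.43, adjusted p = 0.198, limma), but it was called there without Alkali-burned replicate 1 (1.14, adjusted p = 0.0273). Nor was it called in SF/HA-HEP-PAM over SF/HA (0.63, interval -0.01 to 1.27, adjusted p = 0.208), although those libraries did not overlap.

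Plaur, the receptor that holds urokinase on the cell surface (ENSRNOG00000037931, chr1:80050324-80068595, plus strand), followed the same order of groups. It was at 38.3, 50.4 and 61.9 FPKM in SF/HA-HEP-PAM, 22.9, 42.2 and 25.0 FPKM in SF/HA, 19.9, 16.0 and 16.5 FPKM in Alkali-burned and 7.203, 11.8 and 9.48 FPKM in Control libraries. Each group lay above the next with no overlap, except that SF/HA replicate 2 reached into the SF/HA-HEP-PAM range. Plaur rose in SF/HA-HEP-PAM over Alkali-burned (log2 difference 1.45, SE 0.26, adjusted p = 0.00388, limma). Against Control it rose by 2.28 in SF/HA-HEP-PAM (adjusted p = 0.000416) and by 1.54 in SF/HA (adjusted p = 0.00741, limma). It was not called in Alkali-burned over Control (0.83, interval 0.25 to 1.42, adjusted p = 0.0779, limma) or in SF/HA over Alkali-burned (0.70, interval 0.12 to 1.29, adjusted p = 0.203). The difference was 0.75 in SF/HA-HEP-PAM over SF/HA (adjusted p = 0.104, limma), and 1.01 without SF/HA replicate 2 (adjusted p = 0.0316), which would be called.

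Over the 12 libraries Plau and Plaur had a Pearson correlation of 0.953 in log2(FPKM + 1), the highest among the 21 pairs of these genes. The points share library and depth, and their spread includes the 4 group means. The ratio of Plau to Plaur FPKM was 1.99 ± 0.349 in SF/HA-HEP-PAM, 2.18 ± 0.437 in SF/HA, 2.11 ± 0.709 in Alkali-burned and 1.69 ± 0.411 in Control libraries (SD, n = 3). The groups overlapped in each of the 4 comparisons made of this ratio.

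**Figure D1:**
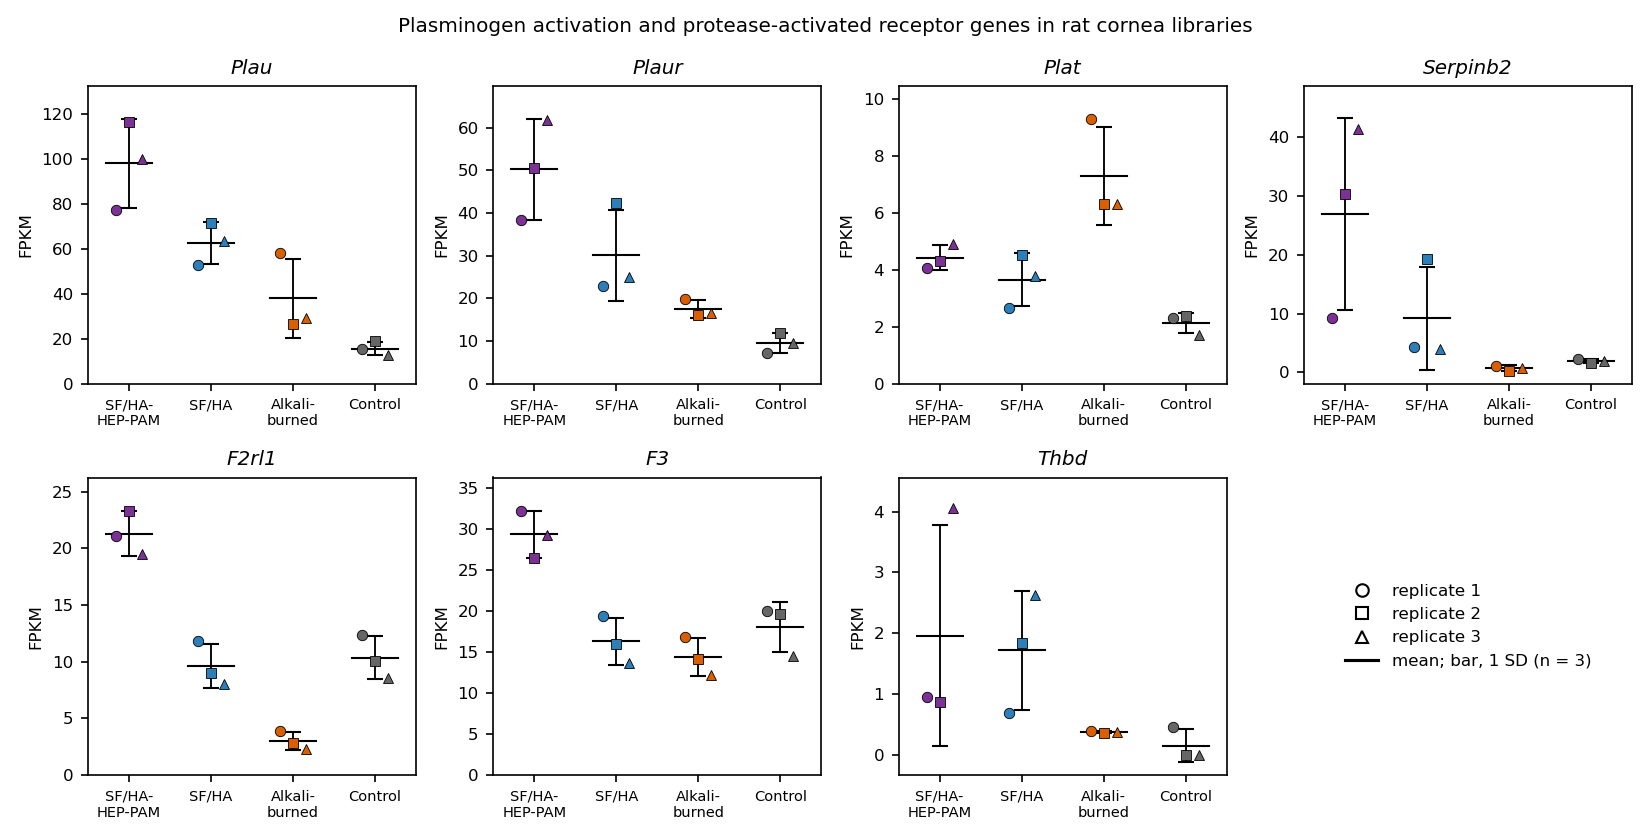
FPKM of the 7 genes in each library (points, with shape giving the replicate), with the mean (line) and 1 SD (bar) of each group of 3. Plau and Plaur step down from SF/HA-HEP-PAM to Control, Plat is highest in Alkali-burned, F2rl1 is lowest in Alkali-burned, and Serpinb2 and Thbd spread widely within SF/HA-HEP-PAM and SF/HA.

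The tissue-type activator Plat, which acts mainly on plasminogen bound to fibrin (ENSRNOG00000019018, chr16:69240585-69268223, minus strand), had another order, with its highest levels in Alkali-burned. It was at 4.07, 4.29 and 4.91 FPKM in SF/HA-HEP-PAM, 2.65, 4.49 and 3.78 FPKM in SF/HA, 9.28, 6.29 and 6.30 FPKM in Alkali-burned and 2.31, 2.37 and 1.71 FPKM in Control libraries. All 3 Alkali-burned libraries lay above the other 9, and all 3 Control libraries below. Plat rose in Alkali-burned over Control (log2 difference 1.39, SE 0.19, adjusted p = 0.00212, limma), a call kept with any 1 library left out. It was lower in SF/HA than in Alkali-burned by a log2 difference of -0.84 (adjusted p = 0.0427, limma) and in SF/HA-HEP-PAM by -0.60 (adjusted p = 0.0483), both short of the fold threshold and so not called. Against Control, Plat was 0.80 higher in SF/HA-HEP-PAM (adjusted p = 0.0151, limma) and 0.56 higher in SF/HA (adjusted p = 0.118), neither called. SF/HA-HEP-PAM and SF/HA libraries overlapped (0.24, interval -0.18 to 0.67).

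Markers of other cell types were mixed in their order. The summed FPKM of 6 macrophage markers, all above 0, was 120 to 128 in SF/HA-HEP-PAM, 122 to 221 in SF/HA, 200 to 248 in Alkali-burned and 57.4 to 84.9 in Control libraries. Most of that sum in Alkali-burned was Cd68, a lysosomal protein of macrophages, at 46.4 to 64.0, 55.7 to 77.1, 149 to 189 and 48.1 to 79.1 FPKM in the same order of groups. C1qa and Lyz2 were not highest in Alkali-burned. C1qa was at 13.3 to 23.8 FPKM in SF/HA-HEP-PAM, 19.1 to 45.6 in SF/HA, 15.3 to 19.8 in Alkali-burned and 1.70 to 4.26 in Control libraries. Lyz2 was at 40.0 to 57.3, 47.2 to 99.5, 35.7 to 38.5 and 3.83 to 7.06 FPKM in that order.

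The 5 markers of vessel endothelium, a known source of tissue-type activator, summed to 0.750 to 1.17 FPKM in SF/HA-HEP-PAM, 1.05 to 1.89 in SF/HA, 1.96 to 2.40 in Alkali-burned and 0.827 to 2.19 in Control libraries. Egfl7 made up most of the Alkali-burned sum, at 0.404 to 0.597, 0.214 to 1.23, 1.10 to 1.49 and 0.121 to 0.439 FPKM in the same order. Kdr had its highest value in Control, at 0.306 to 0.518, 0.194 to 0.625, 0.415 to 0.733 and 0.639 to 1.67 FPKM, and Pecam1 its highest in SF/HA, at 0.119 to 0.260 FPKM against 0.0415 to 0.167 FPKM in Alkali-burned. Of these 5 markers only Egfl7 passed the filter of at least 1 FPKM in at least 3 libraries, so the orders of Kdr and Pecam1 rest on low levels. The 3 corneal endothelial markers summed to 2.07 to 3.12 FPKM in SF/HA-HEP-PAM, 2.88 to 4.77 in SF/HA, 5.75 to 7.39 in Alkali-burned and 2.53 to 5.15 in Control libraries. Their part in the Plat levels was not tested.

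Relative to Plat, Plau was higher in every SF/HA-HEP-PAM and SF/HA library than in any Alkali-burned or Control library. The ratio of Plau to Plat FPKM was 22.2 ± 4.38 in SF/HA-HEP-PAM, 17.6 ± 2.08 in SF/HA, 5.03 ± 1.11 in Alkali-burned and 7.33 ± 0.633 in Control libraries (SD, n = 3). The lowest SF/HA library (15.9) lay above the highest Control (7.94) and Alkali-burned (6.29) libraries. On the log2 scale the ratio differed by 2.15 (SE 0.24) in SF/HA-HEP-PAM over Alkali-burned and by 1.82 (SE 0.20) in SF/HA over Alkali-burned. Each had a two-sided exact permutation p of 0.1, the smallest that 3 against 3 allows, and 0.2 when adjusted over the 12 comparisons of ratios made. Alkali-burned over Control, at -0.56, had the same p, and SF/HA-HEP-PAM over SF/HA, whose libraries overlapped, an exact p of 0.2. The size of the ratio itself depends on the gene lengths used for FPKM, and the comparisons between groups do not.

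**Figure D2:**
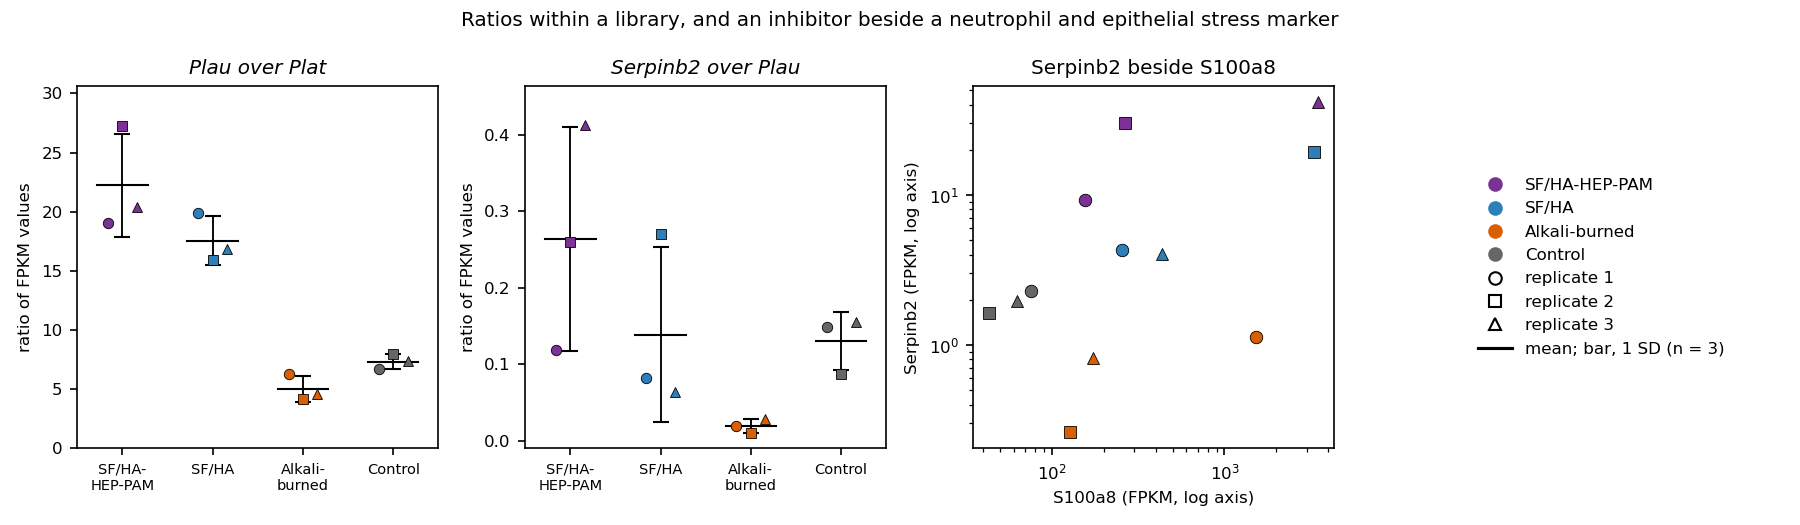
Ratio of Plau to Plat FPKM and of Serpinb2 to Plau FPKM in each library (points) with group mean (line) and 1 SD (bar, n = 3), and Serpinb2 against S100a8 FPKM on log axes. The Plau to Plat ratio lies between 15.9 and 27.2 in all SF/HA-HEP-PAM and SF/HA libraries and at or below 7.94 in all others.

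Serpinb2, plasminogen activator inhibitor 2 (ENSRNOG00000002460, chr13:23541400-23550408, plus strand), is a serpin that blocks urokinase and is kept largely inside cells. Its levels were 9.22, 30.3 and 41.3 FPKM in SF/HA-HEP-PAM, 4.32, 19.4 and 4.06 FPKM in SF/HA, 1.14, 0.263 and 0.821 FPKM in Alkali-burned and 2.28, 1.63 and 1.97 FPKM in Control libraries. Every SF/HA-HEP-PAM and SF/HA library lay above every Control library, and every Control library above every Alkali-burned one. The spread was wide within the higher groups, where SF/HA replicate 2 lay inside the SF/HA-HEP-PAM range. The reads behind these values were 1161 over the 3 SF/HA-HEP-PAM libraries, 148 in SF/HA, 24 in Alkali-burned and 41 in Control.

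Serpinb2 rose in SF/HA-HEP-PAM over Alkali-burned, with a log2 difference of 3.81 (SE 0.59, adjusted p = 0.00179, limma), the largest of the 7 genes in any comparison. Mean FPKM was 27.0 ± 16.3 against 0.740 ± 0.442 (SD, n = 3), 36.4-fold. Over Control the difference was 3.02 (SE 0.59, adjusted p = 0.00605, limma). With any 1 library left out both calls were kept, with differences of 3.40 to 4.42 and of 2.60 to 3.63. In SF/HA over Alkali-burned the difference was 2.27 (interval 0.95 to 3.58) without a call (adjusted p = 0.0713, limma). It was called there without SF/HA-HEP-PAM replicate 1 (same difference, adjusted p = 0.0332) and with a pseudocount of 0.1 in place of 1 (3.25, adjusted p = 0.0357). It was not called in SF/HA-HEP-PAM over SF/HA (1.54, interval 0.23 to 2.86, adjusted p = 0.133), and was without SF/HA replicate 2 (2.20, adjusted p = 0.0296). SF/HA over Control (1.47, adjusted p = 0.174, limma) and Alkali-burned over Control (-0.79, interval -2.11 to 0.52, adjusted p = 0.463) were not called.

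Summed reads gave a rate of Serpinb2 in Alkali-burned libraries that was 0.382 times that in Control (95% exact interval 0.221 to 0.648, for counting error only). The ratio of Serpinb2 to Plau FPKM was 0.264 ± 0.147 in SF/HA-HEP-PAM, 0.139 ± 0.114 in SF/HA, 0.0192 ± 0.00918 in Alkali-burned and 0.130 ± 0.0379 in Control libraries (SD, n = 3). All 3 Alkali-burned ratios lay below all others. This gave an exact two-sided permutation p of 0.1 against Control and against each of the other groups, the smallest possible, and 0.2 after adjustment over the 12 ratio comparisons.

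S100a8, a calcium-binding protein of neutrophils and stressed epithelium, varied within the same groups. It was at 154, 265 and 3472 FPKM in SF/HA-HEP-PAM, 256, 3299 and 432 FPKM in SF/HA, 1528, 128 and 174 FPKM in Alkali-burned and 75.1, 43.4 and 62.5 FPKM in Control libraries. In 4 of the 4 groups the library with the most S100a8 was also the highest in Serpinb2, in 3 of 4 groups it was the highest in Plaur, Plat and Thbd, and in 2 of 4 in Plau, F3 and F2rl1. For Thbd, each Alkali-burned library had 2 reads, so its order there follows library depth. In Control its order rests on 1 read. The Control order of Serpinb2 rests on 10, 13 and 18 reads in replicates 1, 2 and 3. The same count was not made over all genes, so these counts are a description. The 5 neutrophil markers together, with 1 at 0 in all 12 libraries, summed to 863 to 9752 FPKM in SF/HA-HEP-PAM, 791 to 8695 in SF/HA, 551 to 3565 in Alkali-burned and 155 to 198 in Control libraries. S100a8 and the related S100a9 carry this sum, and the other markers of the list did not pass the filter. Between groups the order was not the same: Alkali-burned replicate 1 had 1528 FPKM of S100a8 and 1.14 FPKM of Serpinb2. Below, the libraries with the most S100a8 in each group are called the 4 that stood apart, a label and not a tested property. In Control the gap was small, at 75.1 against 43.4 and 62.5 FPKM. A further fit left these 4 libraries out. Serpinb2 was then 3.56 higher in SF/HA-HEP-PAM than in Alkali-burned (adjusted p = 0.00747, limma), with fewer libraries per group. What part neutrophils have in these levels was not tested.

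F2rl1, protease-activated receptor 2 (ENSRNOG00000018003, chr2:26772278-26785226, minus strand), was the gene of the 7 with the lowest adjusted p in limma's F-test over the groups (0.000207). It was at 21.1, 23.3 and 19.5 FPKM in SF/HA-HEP-PAM, 11.8, 8.98 and 8.06 FPKM in SF/HA, 3.88, 2.87 and 2.28 FPKM in Alkali-burned and 12.4, 10.1 and 8.59 FPKM in Control libraries. The SF/HA-HEP-PAM libraries were the 3 highest and the Alkali-burned libraries the 3 lowest, while SF/HA and Control overlapped. Replicate 1 was the highest library in SF/HA, Alkali-burned and Control, and these are different samples with no stated link.

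F2rl1 fell in Alkali-burned corneas, to 3.01 ± 0.810 FPKM against 10.4 ± 1.91 FPKM in Control (SD, n = 3), a log2 difference of -1.51 (SE 0.20, adjusted p = 0.00163, limma). It was higher in SF/HA than in Alkali-burned by 1.41 (SE 0.20, adjusted p = 0.00429, limma), though not called when only the compared libraries were fitted (adjusted p = 0.0527). Its rise in SF/HA-HEP-PAM over Alkali-burned was 2.49 (SE 0.20, adjusted p = 4.68e-05, limma), 7.08-fold in mean FPKM. These 3 calls were kept with any 1 library left out. They share the same 3 Alkali-burned libraries, so a low or high draw of those libraries enters all 3 of them. The difference of SF/HA from Control was -0.10 with an interval of -0.53 to 0.33 (adjusted p = 0.817, limma).

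Between SF/HA-HEP-PAM and SF/HA, F2rl1 was the only one of the 7 genes called, at 1.08 (SE 0.20, adjusted p = 0.00971, limma). That call sits close to the fold threshold. It was lost without SF/HA-HEP-PAM replicate 1 (1.09, adjusted p = 0.0515) and without SF/HA replicate 3 (0.98), and the difference was 0.88 after median-of-ratios scaling, 0.96 after quantile normalization, 0.93 in a voom fit of the reads and 0.85 with a pseudocount of 5. Against Control, SF/HA-HEP-PAM was 0.98 higher (SE 0.20, adjusted p = 0.00639, limma), just short of the fold threshold, and 1.11 higher without Control replicate 1 and 1.04 without SF/HA-HEP-PAM replicate 3, which would be called. F2rl1 is known from epithelium, and 4 epithelial markers, all above 0, summed to 3401 to 4470 FPKM in SF/HA-HEP-PAM, 2662 to 3951 in SF/HA, 2104 to 3442 in Alkali-burned and 3900 to 7081 in Control libraries. Krt12, Krt5 and Aldh3a1 carry these sums. None of them was called in SF/HA-HEP-PAM over Alkali-burned or over SF/HA, where F2rl1 was. Krt5 was higher there by 0.74 (adjusted p = 0.0661) and 0.51 (0.256, limma), and its libraries did not overlap. Krt12 (0.51 and 0.46) and Aldh3a1 (0.25 and 0.12) were also higher there, with overlap. In Alkali-burned over Control Krt5 was -0.98 (adjusted p = 0.0397, limma), just short of the fold threshold and without overlap. Aldh3a1 was called lower than in Control in Alkali-burned (-1.27, adjusted p = 0.0239), SF/HA (-1.14, 0.0458) and SF/HA-HEP-PAM (-1.01, 0.0326, limma). The fourth marker, Pax6, a transcription factor of corneal epithelium, was at 10.8 to 16.7 FPKM in SF/HA-HEP-PAM, 4.03 to 7.42 in SF/HA, 2.63 to 5.15 in Alkali-burned and 7.98 to 12.1 in Control libraries. Like F2rl1 it was called lower in Alkali-burned than in Control (-1.16, adjusted p = 0.0247, limma), and higher in SF/HA-HEP-PAM than in Alkali-burned (1.46, adjusted p = 0.00421) and SF/HA (1.08, adjusted p = 0.0352). It was not called in SF/HA over Alkali-burned, where F2rl1 was. Their part in the F2rl1 levels was not tested.

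**Figure D3:**
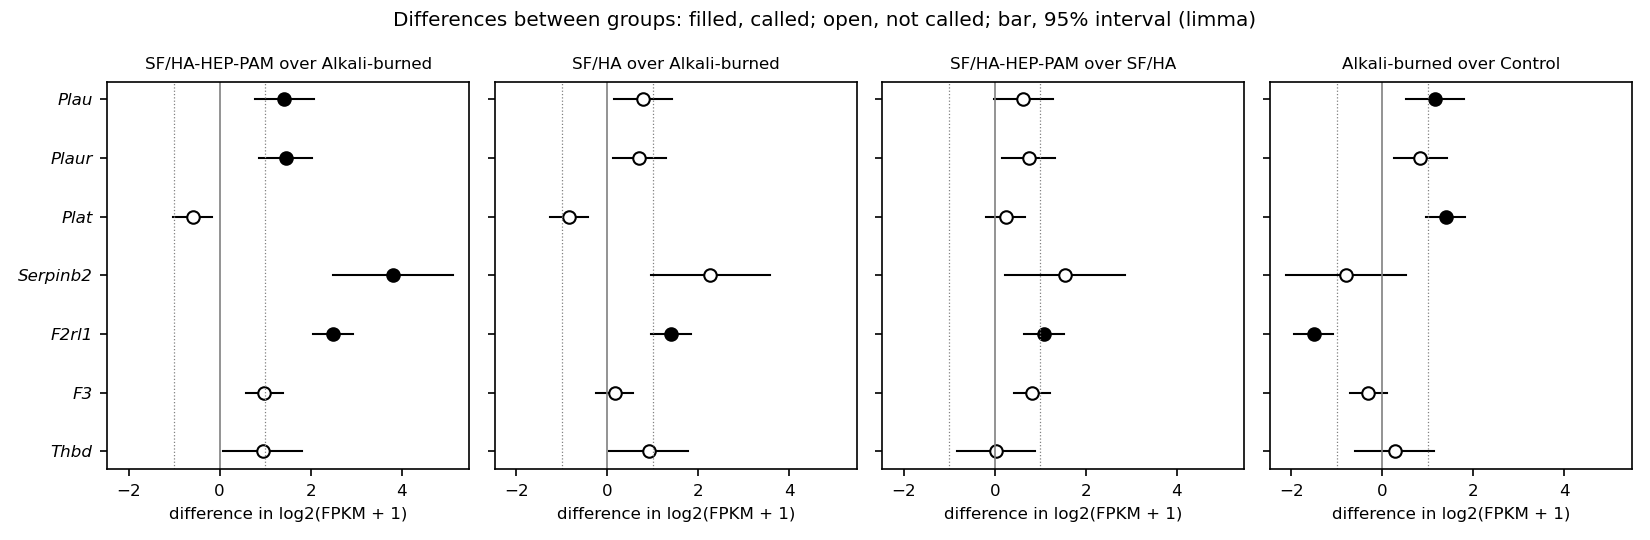
Difference between groups in log2(FPKM + 1) for the 7 genes in 4 comparisons, with 95% intervals from limma, where filled points are called and dotted lines mark the thresholds of -1 and 1. F2rl1 is called in all 4 panels, lower in Alkali-burned over Control and higher in the other 3, and Plat is higher in Alkali-burned over Control.

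F3, tissue factor, the membrane protein that starts coagulation by binding factor VII (ENSRNOG00000011800, chr2:209826959-209838668, plus strand), varied less. It was at 32.2, 26.4 and 29.3 FPKM in SF/HA-HEP-PAM, 19.3, 15.9 and 13.6 FPKM in SF/HA, 16.8, 14.2 and 12.2 FPKM in Alkali-burned and 20.0, 19.6 and 14.5 FPKM in Control libraries. The SF/HA-HEP-PAM libraries lay above the other 9, and the other 3 groups overlapped one another. The log2 difference of SF/HA-HEP-PAM was 0.98 over Alkali-burned (SE 0.18, adjusted p = 0.00421, limma), 0.82 over SF/HA (adjusted p = 0.0242) and 0.68 over Control (adjusted p = 0.0234). None of the 3 reached the fold threshold, though the first passed it without SF/HA-HEP-PAM replicate 2 (1.05) and without Alkali-burned replicate 1 (1.09). The remaining comparisons gave 0.16 in SF/HA over Alkali-burned, -0.14 in SF/HA over Control and -0.30 in Alkali-burned over Control, with adjusted p of 0.722, 0.707 and 0.347 (limma).

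Thbd, thrombomodulin, the receptor on endothelium and epithelium that redirects thrombin to protein C (ENSRNOG00000004687, chr3:135862835-135867193, minus strand), was measured by few reads. There were 6, 8 and 22 reads in SF/HA-HEP-PAM, 2, 4 and 11 in SF/HA, 2, 2 and 2 in Alkali-burned and 1, 0 and 0 in Control libraries. In FPKM these were 0.961, 0.867 and 4.05 in SF/HA-HEP-PAM, 0.687, 1.84 and 2.63 in SF/HA, 0.391, 0.363 and 0.377 in Alkali-burned and 0.472, 0 and 0 in Control. The counts of 0 in Control allow up to 0.776 and 0.678 FPKM, at 3 reads per library. The libraries of SF/HA-HEP-PAM and SF/HA lay above those of Alkali-burned and Control without overlap, but most of the reads came from replicate 3 of each.

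Over summed reads the rate of Thbd in SF/HA-HEP-PAM was 17.9 times that in Control, where there was 1 read, with a 95% exact interval of 3.02 to 728. It was 4.57 times that in Alkali-burned (1.91 to 13.3). For SF/HA the rate was 4.88 times that in Alkali-burned (1.83 to 15.1). These intervals cover counting error only. In limma Thbd was called in SF/HA-HEP-PAM over Control (1.22, SE 0.39, adjusted p = 0.0483), and this was lost without SF/HA-HEP-PAM replicate 1 (1.43), without any 1 of the Alkali-burned replicates 1, 2 and 3 (1.22 each) and without Control replicate 2 or 3 (1.12 each). It was kept without SF/HA-HEP-PAM replicate 2, SF/HA replicate 1 or Control replicate 1, and without SF/HA-HEP-PAM replicate 3 or SF/HA replicate 2 or 3 the gene fell under the filter. Of 9 other alternatives that could be fitted, 7 ended the call: a pseudocount of 5 (0.40), no filter (adjusted p = 0.104), median-of-ratios scaling (0.0642), quantile normalization (0.88), only the compared libraries (0.110), the replicate block (0.0538) and thinned reads (0.129). Over the groups its F-test gave an adjusted p of 0.0643.

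Counted over comparisons, 3 of the 7 genes were called in Alkali-burned over Control, where 5.69% of all genes tested were called. Of these, 2 were higher (Plau, Plat), beside 4.42% of all genes, and 1 lower (F2rl1), beside 1.28%. For SF/HA over Alkali-burned it was 1 gene, F2rl1, higher, where 2.44% of all genes were called, 0.376% higher and 2.06% lower. SF/HA-HEP-PAM over Alkali-burned had 4 higher (Plau, Plaur, Serpinb2, F2rl1) and 0 lower, where 11.1% of all genes were called, 7.38% higher and 3.71% lower.

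The call of F2rl1 in SF/HA-HEP-PAM over SF/HA stands beside 4.37% of all genes called, 3.84% higher and 0.524% lower. Against Control, 2 of the 7 were higher in SF/HA (Plau, Plaur), where 4.56% of all genes were called, 3.19% higher and 1.37% lower. In SF/HA-HEP-PAM 4 were higher than in Control (Plau, Plaur, Serpinb2, Thbd), where 11.6% of all genes were called, 9.21% higher and 2.39% lower. Of these, Thbd passed the filter only through SF/HA-HEP-PAM and SF/HA libraries, the groups in which it was high. Comparisons that share a group share its libraries, so their counts are not independent of one another. Leaving out the 4 libraries that stood apart gave 2, 1, 5 and 1 called genes in Alkali-burned over Control, SF/HA over Alkali-burned, SF/HA-HEP-PAM over Alkali-burned and SF/HA-HEP-PAM over SF/HA. It gave 2 in SF/HA over Control and 4 in SF/HA-HEP-PAM over Control, where F2rl1 passed the fold threshold and Thbd was under the filter.

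The median log2 difference of the 7 genes was 1.42 in SF/HA-HEP-PAM over Alkali-burned, against 0.04 over all genes tested. It was 0.79 in SF/HA over Alkali-burned (all genes -0.04), 0.75 in SF/HA-HEP-PAM over SF/HA (0.13) and 0.28 in Alkali-burned over Control (0.06). All 7 kept their groups apart in SF/HA-HEP-PAM over Alkali-burned, 6 higher and 1 lower, where 47.5% of all genes did not overlap. The same held for all 7, each higher, in SF/HA-HEP-PAM over Control (38.9% of all genes). It held for 5 of the 7 in Alkali-burned over Control (29.1%), 5 in SF/HA over Alkali-burned (23.1%), 5 in SF/HA over Control (22.0%) and 3 in SF/HA-HEP-PAM over SF/HA (31.3%). Thbd counts among those set apart in SF/HA over Alkali-burned, with 2 reads in SF/HA replicate 1 and 2 in each Alkali-burned library. For that replicate the separation rests on library depth. The place of Thbd among the tested genes rests on the groups in which it was high. These genes were chosen with results of these libraries known, so the counts are a description.

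Of the other genes of this pathway, few passed the filter of at least 1 FPKM in at least 3 libraries. With FPKM taken over the whole span, a long gene needs more reads to pass. Plasminogen itself (Plg) had 1 read over all 12 libraries and was not tested. In the list of plasminogen and its serpin inhibitors, limma tested 2 of 8 genes and a voom fit of the reads 4. Serpine2, tested by voom only, was called higher in Alkali-burned (7.55% of all genes called) and SF/HA (4.85%) than in Control. It was called lower in SF/HA-HEP-PAM than in Alkali-burned (20.8%) and SF/HA (8.51%). A2m, a broad protease inhibitor that also traps plasmin, averaged 53.5 ± 16.4 FPKM in SF/HA-HEP-PAM, 111 ± 20.0 in SF/HA, 125 ± 28.9 in Alkali-burned and 45.6 ± 23.2 in Control libraries (SD, n = 3). It rose in Alkali-burned over Control (1.53, adjusted p = 0.0218, limma) and in SF/HA over Control (1.36, adjusted p = 0.0448), and fell in SF/HA-HEP-PAM below Alkali-burned (-1.24, adjusted p = 0.0288). None of the 3 A2m calls held with every library left out in turn. The first was lost without Alkali-burned replicate 1 (1.35) or 3 (1.61) or Control replicate 2 (1.27) or 3 (1.40), and the last was kept without Alkali-burned replicates in 0 of 3 fits (-1.06, -1.34 and -1.32 without replicates 1, 2 and 3) and lost without SF/HA-HEP-PAM replicates 2 (-1.33) and 3 (-0.97). The call in SF/HA over Control was lost in 9 of 12 such fits, with differences of 1.10 to 1.52.

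Among 16 receptors and partners of plasminogen and urokinase, 9 were tested, and limma called none in 5 of the 6 comparisons, where 2 to 4 had an unadjusted p below 0.05. A voom fit of the reads, with 12 tested, called 4 in SF/HA-HEP-PAM over Alkali-burned, 2 higher and 2 lower, where it called 20.8% of all genes. It called 1 each in Alkali-burned over Control (7.55% of all genes), SF/HA over Alkali-burned (2.59%) and SF/HA-HEP-PAM over SF/HA (8.51%), none in SF/HA over Control (4.85%) and 3 in SF/HA-HEP-PAM over Control (15.9%). By limma, 2 of the 9 were higher in SF/HA-HEP-PAM than in Control, beside 9.21% of all genes tested. The plasminogen-binding enolase Eno1 averaged 78.1 ± 29.1 against 31.0 ± 6.96 FPKM (1.27, adjusted p = 0.00840, limma), and the integrin subunit Itgav 2.50 ± 0.793 against 0.623 ± 0.0988 FPKM (1.09, adjusted p = 0.00206). Both fell under the fold threshold without SF/HA-HEP-PAM replicate 3 (0.99 and 0.91). Anxa2 and S100a10, which form a plasminogen receptor, differed in SF/HA-HEP-PAM over Alkali-burned by 0.53 (adjusted p = 0.132) and -0.71 (adjusted p = 0.0474, limma), neither past the fold threshold.

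The coagulation list had 3 of 22 genes tested, and factors F7, F9 and F11 had 0 reads in all libraries. Tfpi2, a Kunitz inhibitor of plasmin and of the tissue factor complex, averaged 1.68 ± 0.228 FPKM in SF/HA-HEP-PAM, 2.78 ± 1.48 in SF/HA, 4.13 ± 2.27 in Alkali-burned and 0.943 ± 0.395 in Control libraries (SD, n = 3). It was called in Alkali-burned over Control (1.33, adjusted p = 0.0279, limma) on 66 against 9 reads. This was lost without Alkali-burned replicate 1 (0.995) or Control replicate 2 (1.28) or 3 (1.23). Tfpi, the inhibitor of the tissue factor pathway, was lower in SF/HA-HEP-PAM than in Alkali-burned (-0.83, adjusted p = 0.00391, limma), under the fold threshold.

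Receptors related to F2rl1 were little expressed. F2r, the main thrombin receptor, had 223 reads over all libraries and averaged 0.806 ± 0.0648 FPKM in SF/HA-HEP-PAM, 0.846 ± 0.271 in SF/HA, 0.931 ± 0.381 in Alkali-burned and 1.93 ± 1.71 in Control libraries (SD, n = 3), with no call in any comparison. F2rl2 had 50 reads and F2rl3 had 9, and neither was tested. Of the 15 genes in this list 2 were tested.

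Of 20 proteases known to cut protease-activated receptor 2 or to act near it, and their inhibitors, 9 were tested. In SF/HA-HEP-PAM 2 were higher and 1 lower than in Alkali-burned, beside 7.38% and 3.71% of all genes tested, and 2 higher and 1 lower than in Control, beside 9.21% and 2.39%. In SF/HA 1 was lower than in Alkali-burned (2.06% of all genes) and 1 higher than in Control (3.19%), and 1 was higher in Alkali-burned than in Control (4.42%). Prostasin (Prss8), a membrane-anchored epithelial protease, was at 14.8, 14.0 and 16.5 FPKM in SF/HA-HEP-PAM, 13.4, 17.0 and 19.3 FPKM in SF/HA, 46.5, 76.2 and 72.9 FPKM in Alkali-burned and 30.0, 35.2 and 31.5 FPKM in Control libraries. The Alkali-burned libraries lay above all others and the SF/HA-HEP-PAM and SF/HA libraries below all others, so Prss8 was highest in the group where F2rl1 was lowest. Prss8 fell in SF/HA-HEP-PAM below Alkali-burned (-2.01, SE 0.20, adjusted p = 0.000165, limma) and in SF/HA below Alkali-burned (-1.89, SE 0.20, adjusted p = 0.00134), both kept with any 1 library left out. It was also called lower in SF/HA-HEP-PAM than in Control (-1.05, adjusted p = 0.00540), and not without Control replicate 2 (-0.99).

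The kallikrein Klk8, a secreted serine protease of stratified epithelium, was at 12.1, 13.8 and 29.9 FPKM in SF/HA-HEP-PAM, 5.69, 27.8 and 5.95 FPKM in SF/HA, 2.24, 2.66 and 3.84 FPKM in Alkali-burned and 2.40, 2.64 and 4.75 FPKM in Control libraries. Every SF/HA-HEP-PAM and SF/HA library lay above every Alkali-burned and Control library. It rose in SF/HA-HEP-PAM over Alkali-burned (2.24, SE 0.54, adjusted p = 0.0147, limma) and over Control (2.13, adjusted p = 0.0180), and both calls were lost without SF/HA-HEP-PAM replicate 3 (1.85 and 1.75), the second also without Control replicate 2 (2.04). That replicate was also the highest in Serpinb2 and S100a8.

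Among inhibitors of such proteases, Spint1, which blocks matriptase and prostasin, was called in SF/HA-HEP-PAM over Alkali-burned (15.1 ± 2.86 against 6.61 ± 1.57 FPKM, 1.09, adjusted p = 0.0189, limma). It was not without SF/HA-HEP-PAM replicate 2 (0.997) or 3 (1.03) or Alkali-burned replicate 1 (0.91). Slpi, the secreted inhibitor of neutrophil elastase, averaged 1511 ± 431 FPKM in SF/HA-HEP-PAM, 3172 ± 1442 in SF/HA, 1748 ± 409 in Alkali-burned and 380 ± 126 in Control libraries (SD, n = 3). It rose over Control by 2.00 in SF/HA-HEP-PAM, 3.0 in SF/HA and 2.23 in Alkali-burned (adjusted p = 0.00574, 0.00185 and 0.00803, limma), and these calls were kept with any 1 library left out.

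Of the clade B serpins other than Serpinb2, 3 of 14 in the table were tested. Serpinb5, maspin, rose in SF/HA-HEP-PAM over Alkali-burned (15.9 ± 1.89 against 7.28 ± 2.03 FPKM, 1.05, adjusted p = 0.0264, limma), just past the fold threshold, and this was lost without SF/HA-HEP-PAM replicates 1 (1.10), 2 (0.96) or 3 (1.10) or Alkali-burned replicate 1 (0.83). Serpinb1a, an inhibitor of neutrophil proteases, rose over Control in SF/HA-HEP-PAM (1.27, adjusted p = 0.0176) and SF/HA (1.65, adjusted p = 0.0125, limma). Serpinb3a rose in SF/HA-HEP-PAM over Control (2.56, SE 0.70, adjusted p = 0.0267), with 15.6 ± 13.9 against 1.20 ± 0.288 FPKM. The call of Serpinb1a in SF/HA-HEP-PAM was lost without SF/HA-HEP-PAM replicate 2 (1.09) or Control replicate 1 (0.88). That of Serpinb3a was lost without SF/HA-HEP-PAM replicate 2 (2.59) or 3 (1.90) and without Control replicates 1 (2.57), 2 (2.45) or 3 (2.64).

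**Figure D4:**
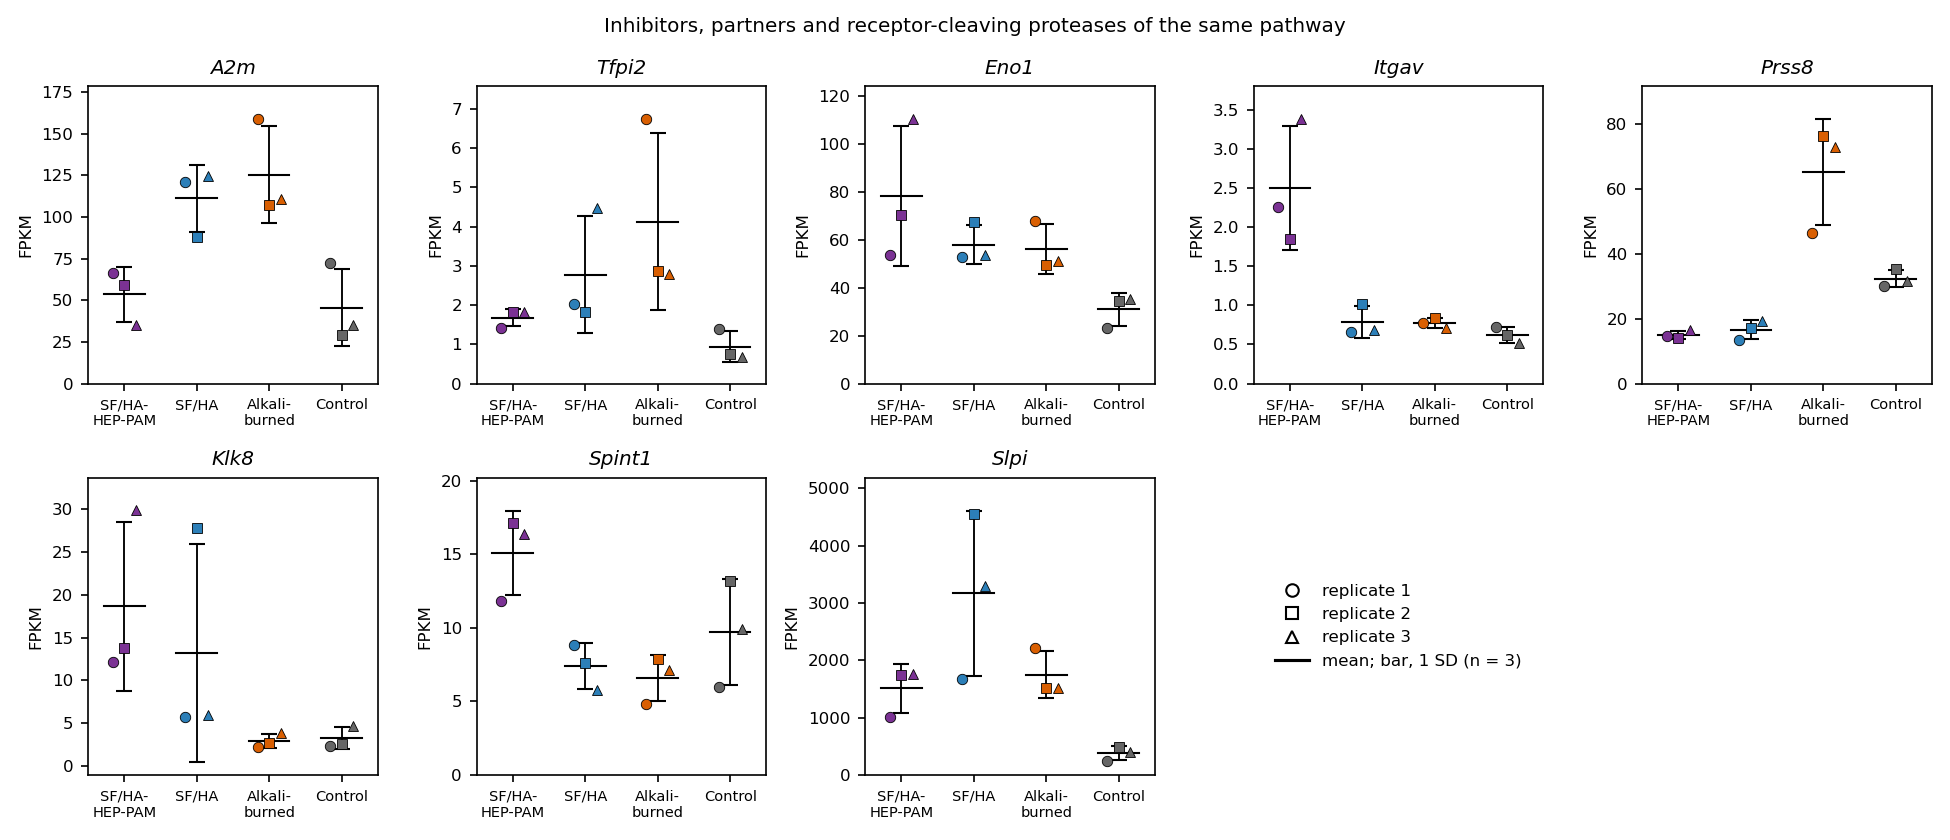
FPKM of 8 other genes of the pathway called in at least 1 comparison, in each library (points), with group mean (line) and 1 SD (bar, n = 3). Prss8 is highest in Alkali-burned (46.5 to 76.2 FPKM) and Slpi lowest in Control (245 to 494 FPKM).

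The genes whose levels were most like each of the 7 were found by Pearson's r of log2(FPKM + 1) over the 12 libraries, among 5347 tested genes with a symbol. For Plau these were Ldha (r = 0.959), Il4r (0.956) and Slc3a2 (0.955), and for Plaur Hcar2 (0.973), Calcb (0.966) and Cd44 (0.966). For Plat they were Tsc22d1 (0.938), Crct1 (0.936) and Litaf (0.932). Crct1, a gene of cornifying epithelium, averaged 147 ± 125 FPKM in SF/HA-HEP-PAM, 104 ± 51.3 in SF/HA, 503 ± 72.8 in Alkali-burned and 26.1 ± 13.2 in Control libraries (SD, n = 3), highest in Alkali-burned as Plat was.

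For Serpinb2 the most alike were Btg1 (0.962), Ifrd1 (0.960) and Clca2 (0.958), for F3 Socs6 (0.962), Son (0.946) and Kmt2e (0.941), and for Thbd Stfa3 (0.943), Ero1a (0.942) and Kcnj2 (0.934). For F2rl1 they were Odc1 (0.976), Cldnd1 (0.943) and Pdcd6 (0.941). Odc1, the first enzyme of polyamine synthesis, averaged 49.5 ± 3.93 FPKM in SF/HA-HEP-PAM, 27.0 ± 6.22 in SF/HA, 9.33 ± 1.84 in Alkali-burned and 28.2 ± 2.22 in Control libraries (SD, n = 3). Like F2rl1 it was lowest in Alkali-burned, and SF/HA and Control means were close. Between the 7 genes, F2rl1 was most like F3 (r = 0.858) and Serpinb2 (0.787), and least like Plat (-0.473). These correlations describe 12 libraries in 4 groups.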

How the data were processed

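RNA was reverse transcribed with barcoded poly(dT) primers carrying molecular identifiers, per the labels' protocols. The series text names fastp, HTSeq-count, FPKM and DESeq2 (q below 0.05, fold above 2 or below 0.5), and the submitters' processing notes list bcl2fastq, fastp, STAR, featureCounts and DESeq2 on mRatBN7.2. The counter differs between them; versions and the use of identifiers are not given in the sources used here.

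The authors deposited FPKM for 30452 genes in 1 column per library; 108 lines that name no gene were left out. Each FPKM was multiplied by length and divided by its library's value for a single read, taken from the lowest nonzero products. This gave whole numbers of reads (tolerance 1.0e-05).

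Log2(FPKM + 1) was fitted with limma 3.58.1 (R 4.3.3), a variance trend and 4 group means over 12 libraries. Genes under 1 FPKM in more than 9 libraries were left out. P-values are Benjamini-Hochberg adjusted over all genes tested per comparison. The 7 genes, the lists and the tests were chosen with earlier results of these data known. Named genes were the 7, pathway genes called in at least 1 comparison and the 3 most correlated genes of each of the 7; a few others are named for low reads or for their role, and 1 called gene is not reported here. Simulated data gave calls for 15 to 31 of 100 genes at a true change of 3-fold, for 61 to 70 at 6-fold, and 0 in the wrong direction, per comparison. Between 2 and 10 unchanged genes were also called per comparison, where 6156 or 6174 genes were tested. Alternatives were other pseudocounts, filters, scalings and library sets, a replicate block, voom on the recovered reads and thinned reads. The 4 libraries called those that stood apart, a set given to the fit by name, were replicate 3 of SF/HA-HEP-PAM, replicate 2 of SF/HA and replicate 1 of both Alkali-burned and Control. Each was the library with the most S100a8 in its group. Figures used Python 3.11.15 and matplotlib 3.10.9.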

Additional observations from a re-analysis of the deposited data

How the results depend on the processing

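Of 15 called results of the 7 genes, 12 were kept in every fit that left out 1 library, and 8 in all other alternatives tried. Counts of called genes among the 7 changed most with the pseudocount. At log2(FPKM + 5) they were 0 in Alkali-burned over Control, SF/HA over Alkali-burned and SF/HA-HEP-PAM over SF/HA. In SF/HA over Alkali-burned they were 2 at log2(FPKM + 0.1), at the filter of 5 FPKM and with library weights, and 0 with only the compared libraries. In SF/HA-HEP-PAM over SF/HA they were 0 with median-of-ratios scaling, quantile normalization and voom, and 2 with library weights; in SF/HA over Control 1 with only the compared libraries. With 1 library left out the counts were 2 to 3 in Alkali-burned over Control, 1 to 2 in SF/HA over Alkali-burned, 4 to 5 in SF/HA-HEP-PAM over Alkali-burned, 0 to 3 over SF/HA, 2 to 2 in SF/HA over Control and 3 to 5 in SF/HA-HEP-PAM over Control.

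No called difference of the 7 changed sign. Plau in Alkali-burned over Control lost its call at log2(FPKM + 5) (0.99), with no filter, with quantile normalization (0.98), with only the compared libraries and without the 4 libraries that stood apart (0.80). At log2(FPKM + 5) Plat (0.78) and F2rl1 (-0.94) lost theirs there too, and F2rl1 in SF/HA over Alkali-burned (0.86). With only the compared libraries Plaur, Slpi and Serpinb1a were not called in SF/HA over Control. Sign changes were in differences near 0. Thbd was -0.0013 in Alkali-burned over Control under quantile normalization. In SF/HA-HEP-PAM over SF/HA Thbd was -0.10 (median-of-ratios), -0.25 (quantile), -0.11 (library weights), -0.15 (thinned) and, with 1 library left out, -0.28 (without SF/HA replicate 1) to 0.28. F2rl1 in SF/HA over Control was 0.027 (weights), 0.061 (without the 4 libraries that stood apart) and, with 1 library left out, -0.24 to 0.024, above 0 without SF/HA replicate 3 (0.0052) or Control replicate 1 (0.024). The cause was not tested.

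Over all genes, calls in the order Alkali-burned over Control, SF/HA over Alkali-burned, SF/HA-HEP-PAM over Alkali-burned, SF/HA-HEP-PAM over SF/HA, SF/HA over Control and SF/HA-HEP-PAM over Control were 348, 149, 678, 267, 279 and 709. They were 188, 89, 336, 143, 139 and 345 at log2(FPKM + 5) and 653, 224, 1804, 736, 420 and 1375 with voom. In Alkali-burned over Control they were 217 with no filter, in SF/HA over Alkali-burned 88 with no filter and 71 with only the compared libraries, in SF/HA over Control 174 and 93 under the same 2 settings, and in SF/HA-HEP-PAM over SF/HA 173 at the filter of 5 FPKM and 166 thinned. With 1 library left out they were 225 to 420, 74 to 183, 478 to 711, 88 to 319, 196 to 364 and 520 to 740. The replicate block gave 312, 151, 668, 245, 256 and 702, with 2, 1, 4, 1, 2 and 3 of the 7 genes, and ended the calls of Plau in Alkali-burned over Control and Thbd in SF/HA-HEP-PAM over Control (for Thbd, lost in 7 of 9 alternatives). Deviations of same-numbered libraries had a mean correlation of 0.00957 (n = 18 pairs, -0.0935 to 0.155), against -0.00457 for others (-0.104 to 0.165). The labels do not say what the number stands for, and so few libraries cannot show whether same-numbered ones share more.

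Scaling moved the balance of calls: the share called higher was 66.5% in SF/HA-HEP-PAM over Alkali-burned (50.1% with median-of-ratios scaling, 55.1% with quantile normalization), 88.0% over SF/HA (64.5% and 70.8%), 79.4% over Control (66.7% and 57.6%) and 77.6% in Alkali-burned over Control (63.3% with quantile normalization). The median of all genes moved too, for SF/HA-HEP-PAM over SF/HA to -0.03 and -0.09, against 0.13, over Alkali-burned to -0.10 and -0.08, against 0.04, and over Control to -0.0036 and -0.11, against 0.14. Depth limits Thbd most, at 0 to 22 reads per library.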
